A study of Homo sapiens with 30 samples.

Results

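The genes described here are 53 genes of DNA replication and of the step from G1 into S phase, taken by name from a count table of nascent transcription in A549 cells, a human lung adenocarcinoma cell line. The table holds 58780 genes, of which 22919 passed a filter on low counts, and all 53 genes were among those tested. They filled 54 rows, because the name POLA2 stands on 2 overlapping rows. The main row was used for POLA2, and the second, at 0.538 to 3.08 CPM (a gene's count relative to its library's scaled total) over the 30 libraries, was left out of every count.

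Nascent RNA was measured by PRO-seq (precision run-on sequencing), in which RNA polymerase already engaged on DNA is allowed to extend its transcript in permeabilised cells and the labelled RNA is sequenced, so a level is one of ongoing transcription rather than of stored mRNA. GSK591 inhibits PRMT5, the main Type II protein arginine methyltransferase, and MS023 inhibits the Type I enzymes. Dexamethasone (Dex) is a synthetic glucocorticoid. The study asked how nascent transcription responded to the inhibitors and to Dex, alone and together. There were 15 groups of 2 libraries each. Besides the untreated group, 2 had Dex alone (15 min and 3 h) and 2 had Dex for 3 h together with GSK591 or MS023. Each inhibitor alone was given for 2, 4 and 7 days, and cells with 7 days of one inhibitor were then given Dex for 15 min or 3 h. Doses were 1 µM GSK591, 1 µM MS023 and 100 nM Dex, and all cells, untreated ones included, received 0.01% DMSO. The untreated group is labelled as 15 min of DMSO and served as the reference for every duration, so days in culture with solvent are not matched. The labels do not say whether the 2 replicates of a group were separate cultures, so p-values measure the spread between these libraries, which may be technical.

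Before S phase, ORC, CDC6 and CDT1 load the MCM helicase onto origins, a step called licensing, and geminin (GMNN) blocks CDT1 once it is done. The kinase CDC7 with DBF4, together with CDC45, the GINS complex and MCM10, then turns the helicase on, after which DNA polymerases, the sliding clamp PCNA and its loader RFC copy the strands, and chromatin is rebuilt behind the fork. Most of these genes are known targets of E2F transcription factors, which are held back by RB-family proteins until cyclin E and its partner kinase act on them.

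Each library held 8441211 to 13069598 counts, of which 58.7% to 78.7% fell on mitochondrial genes. The 53 genes together held 3194 to 8968 counts a library. Replicates of a group correlated at 0.924 to 0.984 across genes on the log scale, and every pair differed by more than sampling noise. The pair furthest apart was Dex with MS023 for 3 h, whose replicate 2 was the highest of the 30 libraries for 15 of the 53 genes. That library held 5.90 times the POLA1 level and 3.89 times the RFC1 level of its partner, and over 2 times for 8 genes. The A549 markers KRT8 (157 to 456 CPM), AKR1B10 (101 to 209) and ALDH1A1 (54.0 to 453) were high in every library, EPCAM and CDH1 were low (at most 6.19 and 6.65), and the leukocyte genes PTPRC and CD3E had at most 5 counts in any library. Levels are CPM scaled by TMM, a correction for differences in RNA composition between libraries. "Rose", "fell" and "called" mean a Benjamini-Hochberg adjusted p below 0.05 in edgeR's quasi-likelihood test over all 22919 genes, with all 30 libraries in 1 fit, and folds are given ± their SE. In bulk cultures, fewer cells in late G1 or S phase and less transcription per cell cannot be told apart.

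Promoters were compared first, since E2F binding is what most of these genes are known to share. RefSeq promoter windows (250 bases before to 50 after a transcript start, build GRCh38.p14) were found for 46 of the 53 genes. The others, MCM4, MCM5, CCNE2, GINS4, RPA2, POLD3 and RPA3, were not matched. An E2F motif was taken as TTTCCCGC, TTTGGCGC, TTTCGCGC or TTTGCCGC on either strand. It stood in the windows of 24 of the 46 genes (52.2%), against 3.99% of the 27305 gene symbols with a window of the same length. CCAAT, the NF-Y motif, stood in 26 of them (56.5%, against 39.7%), and TTTGAA, the core of the CHR element of G2/M genes, in 2 (4.35%, against 18.2%). A match is a string of letters, not a shown binding site, and no match says only that these letters are absent from that window.

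The windows below are printed in the direction of the gene. CLSPN, MCM2, E2F2 and POLE are shown because they are 4 of the 5 genes with a match that fell furthest with GSK591 at 7 days (MCM6 is the other), POLA1 as a gene with a match and a low level that was not called, and CDC45 as the gene that fell furthest without a match to the searched strings in any of its 3 windows. The printed CDC45 window does hold TTTGGCGG, which differs from the searched TTTGGCGC in its last letter and was not counted. Capitals mark the E2F motif.
CLSPN, chr1:35769929-35770228, minus strand: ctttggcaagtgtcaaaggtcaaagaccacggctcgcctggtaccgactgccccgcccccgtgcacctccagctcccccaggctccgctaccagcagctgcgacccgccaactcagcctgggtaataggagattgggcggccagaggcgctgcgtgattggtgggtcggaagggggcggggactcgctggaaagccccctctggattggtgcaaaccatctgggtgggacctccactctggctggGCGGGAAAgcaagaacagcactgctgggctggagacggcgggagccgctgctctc
MCM2, chr3:127598161-127598460, plus strand: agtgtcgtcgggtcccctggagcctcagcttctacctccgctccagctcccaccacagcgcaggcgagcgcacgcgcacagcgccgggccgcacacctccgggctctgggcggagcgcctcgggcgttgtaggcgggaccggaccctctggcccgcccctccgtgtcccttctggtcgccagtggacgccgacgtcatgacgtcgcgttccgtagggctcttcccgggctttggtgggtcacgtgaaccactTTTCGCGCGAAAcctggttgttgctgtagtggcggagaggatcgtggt
E2F2, chr1:23531184-23531483, minus strand: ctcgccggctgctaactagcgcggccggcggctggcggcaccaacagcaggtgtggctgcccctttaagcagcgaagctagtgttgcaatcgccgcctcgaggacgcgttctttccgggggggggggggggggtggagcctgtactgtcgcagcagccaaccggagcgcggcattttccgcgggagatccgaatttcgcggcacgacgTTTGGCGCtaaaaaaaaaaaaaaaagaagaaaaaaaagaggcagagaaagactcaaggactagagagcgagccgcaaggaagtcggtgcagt
POLE, chr12:132687293-132687592, minus strand: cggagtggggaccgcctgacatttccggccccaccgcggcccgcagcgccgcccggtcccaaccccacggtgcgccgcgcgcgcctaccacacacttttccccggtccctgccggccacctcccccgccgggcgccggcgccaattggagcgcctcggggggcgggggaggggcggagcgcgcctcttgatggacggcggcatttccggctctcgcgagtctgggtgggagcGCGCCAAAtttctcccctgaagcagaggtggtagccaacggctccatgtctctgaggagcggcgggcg
POLA1, chrX:24693668-24693967, plus strand: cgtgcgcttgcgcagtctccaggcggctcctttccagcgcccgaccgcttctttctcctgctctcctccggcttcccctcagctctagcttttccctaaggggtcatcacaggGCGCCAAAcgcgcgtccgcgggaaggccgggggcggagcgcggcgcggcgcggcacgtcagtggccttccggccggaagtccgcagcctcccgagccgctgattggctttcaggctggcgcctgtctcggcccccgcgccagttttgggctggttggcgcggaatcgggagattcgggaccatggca
CDC45, chr22:19479670-19479969, plus strand: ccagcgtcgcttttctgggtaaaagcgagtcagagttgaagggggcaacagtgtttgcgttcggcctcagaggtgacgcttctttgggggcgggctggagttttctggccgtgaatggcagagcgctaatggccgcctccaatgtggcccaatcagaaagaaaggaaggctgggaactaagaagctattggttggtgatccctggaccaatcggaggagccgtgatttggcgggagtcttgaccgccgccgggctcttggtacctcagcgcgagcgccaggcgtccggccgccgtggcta

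In MCM2 both matches overlap and form 1 palindrome from base 2 to base 13, and in CLSPN the match spans the start itself (bases -5 to 2). The match lies at -42 to -35 in E2F2, at -18 to -11 in POLE and at -137 to -130 in POLA1, where the start base itself is counted as 0. Of the 24 genes with a match, 19 were called lower after 7 days of GSK591, with a median log2 fold of -1.28, and of the 22 without one 16 were called lower, with a median of -0.87. The 2 sets overlapped over nearly their whole range: with a match from -2.17 (CLSPN) to 0.41 (POLE2), and without from -2.35 (CDC45) to -0.01 (CCNE1). Near variants of the strings, as in CDC45, were not searched, so lack of a match does not mean lack of an E2F site.

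Levels in untreated cells were compared per kilobase of exon. Whether the authors counted exons or whole genes is not given in the sources used here, so the order holds only if exons were counted. PCNA, the sliding clamp, was highest at 22.6 ± 2.79 CPM per kilobase (SD, n = 2), followed by TK1 (thymidine kinase, 18.5 ± 0.352), the loader CDT1 (13.8 ± 0.740) and the helicase subunit MCM7 (11.6 ± 0.109). PCNA and TK1 differed by more than the SD of either, while FEN1 (10.4) and RRM2 (10.3 ± 0.519), next in order, did not differ beyond their spread. The lowest were the primase subunit PRIM2 (0.204 ± 0.0143), the GINS subunit GINS3 (0.529 ± 0.0223) and the polymerase α and ε subunits POLA2 (0.832 ± 0.0320) and POLE2 (0.837 ± 0.119), the last pair within its spread.

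With GSK591 the summed level of the 53 genes went from 850.1 ± 13.2 CPM in untreated cells to 652 ± 25.1 after 2 days, 438 ± 12.8 after 4 days and 424 ± 5.01 after 7 days (SD, n = 2). With TMM scaling none of the 53 rose at any time. At 2 days 11 fell, against 2.45% of all genes tested that fell, at 4 days 38 fell (8.28%) and at 7 days 40 fell (6.52%). The median log2 folds over the 53 genes were -0.39, -0.96 and -1.18, while the medians over all genes were between -0.01 and 0. By total counts alone 1 fell at 2 days, 18 fell and 2 rose at 4 days and 31 fell at 7 days, with medians of -0.10, -0.54 and -1.20 where all genes had 0.29, 0.42 and -0.03. Leaving out any 1 library left 5 to 7 calls (2 days), 28 to 33 (4 days) and 29 to 34 (7 days). Besides the genes noted where they are described, the 7-day calls for DBF4, CDC7, GINS3, WDHD1, POLD3, PRIM1, RFC4, RPA1, RPA2, RRM1, TK1 and CHAF1B were each lost without at least 1 of the 4 libraries.

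**Figure D1:**
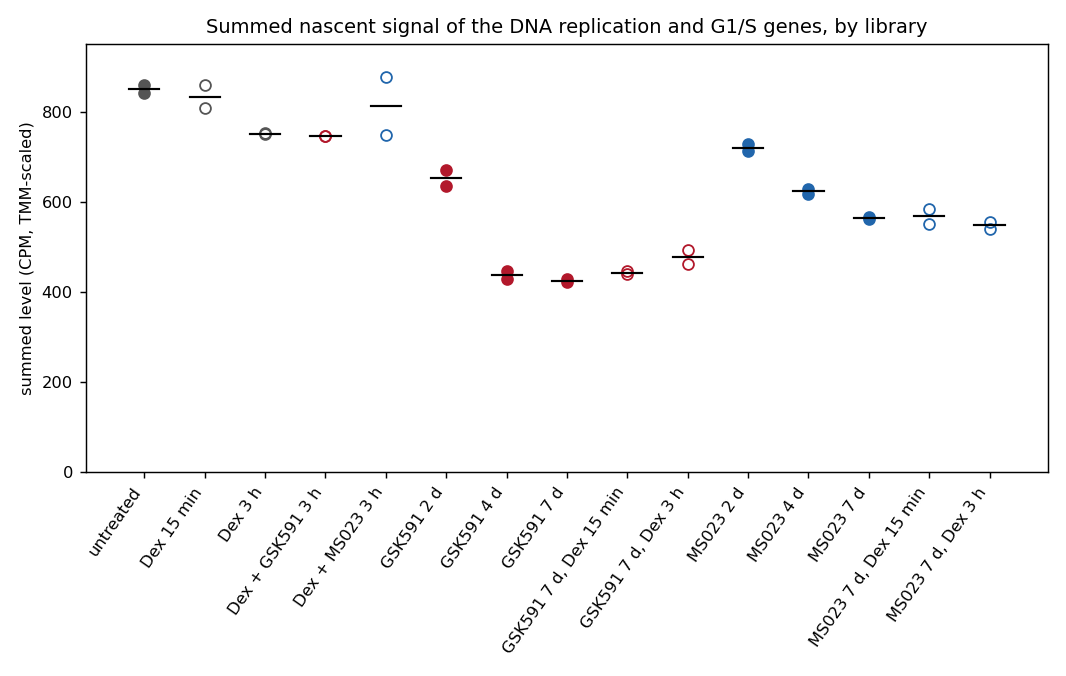
Summed level of the 53 genes (y axis, TMM-scaled CPM, linear from 0) in each of the 30 libraries, by group (x axis); filled points are untreated or inhibitor-only libraries, open points include Dex, and bars are the means of 2. With TMM scaling the means fall from 850.1 CPM in untreated cells to 424 after 7 days of GSK591 and 564 after 7 days of MS023, and with Dex alone for 3 h the mean is 751; scaled by total counts alone, the median gene of the list was higher, not lower, with MS023.

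Of the 11 licensing genes, 4 had fallen after 2 days of GSK591, 10 after 4 days and all 11 after 7 days, with a 7-day median log2 fold of -1.55. MCM2, a subunit of the helicase, lay at 15.0 and 15.1 CPM in the untreated libraries, 9.01 and 11.0 on day 2, 2.21 and 3.41 on day 4 and 4.30 and 2.55 on day 7. The treated libraries at all 3 times lay wholly below the untreated ones, and MCM2 reached 0.231 times the untreated level (log2 fold -2.11 ± 0.231 SE, edgeR adjusted p = 1.86e-09). MCM5, another subunit, went from 26.1 and 25.5 to 5.93 and 7.77 CPM (log2 fold -1.92 ± 0.162 SE, edgeR adjusted p = 9.21e-13), again with no overlap. MCM7, the most abundant subunit, went from 51.1 and 50.4 to 23.4 and 26.7 CPM, a log2 fold of -1.02 ± 0.122 SE. The other subunits MCM3, MCM4 and MCM6 fell by 1.59, 1.41 and 1.84 on the log2 scale. Of the exon bases of MCM2, 22.7% are also covered by TPRA1 on the opposite strand. The part of TPRA1 in the MCM2 counts was not tested.

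The loading factor CDC6 lay at 47.4 and 37.4 CPM untreated, 38.2 and 34.9 on day 2, 24.9 and 25.5 on day 4 and 16.7 and 20.0 on day 7, where its log2 fold was -1.21 ± 0.130 SE. CDC6 was the only 1 of the 53 called lower at 7 than at 4 days. Its level at 2 days overlapped the untreated range. ORC1 and ORC6, subunits of the origin recognition complex, had log2 folds of -1.31 and -1.64 at 7 days. Geminin, the inhibitor of CDT1, went from 16.3 and 14.9 to 6.04 and 4.56 CPM (log2 fold -1.55 ± 0.186 SE). CDT1 itself had the smallest fold of the group, from 44.3 and 47.8 to 35.8 and 35.1 CPM (log2 fold -0.38 ± 0.121 SE), and was not called when any 1 of the 4 libraries was left out, with log2 folds then of -0.43 to -0.32.

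Of the 9 genes of helicase activation, 8 had fallen at 7 days of GSK591. CDC45, which joins MCM and GINS into the active helicase, fell furthest of all 53 genes. It lay at 10.1 and 9.77 CPM untreated, 3.90 and 4.02 on day 2, 3.17 and 2.41 on day 4 and 1.51 and 2.41 on day 7, so every treated library was below both untreated ones already at 2 days (7-day log2 fold -2.35 ± 0.279 SE, edgeR adjusted p = 1.43e-08). MCM10, WDHD1 and GINS3, which help to build or tether the replisome, had log2 folds of -1.82, -1.76 and -1.73, and GINS1 and GINS4 of -1.34 and -1.19. The kinase CDC7 and its activator DBF4 had log2 folds of -0.97 and -1.11. GINS2 was the exception, at 12.0 and 13.3 CPM untreated and 12.0 and 15.5 on day 7, with overlapping ranges and a log2 fold of 0.11 ± 0.176 SE that was not called.

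Of the 8 polymerase and primase genes, 4 fell. POLE, the catalytic subunit of the leading-strand polymerase, went from 37.6 and 36.6 CPM untreated to 23.5 and 22.5 on day 2, 11.3 and 9.73 on day 4 and 10.5 and 10.9 on day 7 (7-day log2 fold -1.80 ± 0.145 SE, edgeR adjusted p = 2.31e-13). POLD1 and POLD3 of the lagging-strand polymerase had log2 folds of -0.72 and -0.80, and the primase subunit PRIM1 of -1.22. POLA1, the catalytic subunit of the priming polymerase, went from 7.45 and 6.55 to 2.32 and 1.74 CPM with no overlap, but its log2 fold of -1.76 ± 0.717 SE was not called (edgeR adjusted p = 0.127). Its SE was the largest of the 53 genes, and the 2 libraries of Dex with MS023 for 3 h, which share the fit, held 2.95 and 17.4 CPM. PRIM2, POLA2 and POLE2 had log2 folds of -0.47, -0.21 and 0.41 and were not called. In the authors' deposited table, described further below, PRIM2, POLA2, POLE2 and POLA1 were called lower, at -1.25, -1.17, -1.91 and -1.25.

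Among the 8 clamp, loader and lagging-strand genes 5 fell. PCNA went from 30.4 and 36.2 to 16.9 and 17.7 CPM (log2 fold -0.95 ± 0.148 SE), and LIG1, the ligase that seals Okazaki fragments, from 29.8 and 24.8 to 13.8 and 15.8 (log2 fold -0.88 ± 0.145 SE). The loader subunit RFC2 had a log2 fold of -1.32 ± 0.248 SE. RFC3 had -1.53 ± 0.467 SE from 2.56 and 2.52 CPM untreated, and it was not called without any 1 of the 4 libraries (-1.63 to -1.42). RFC4 fell by 0.47 on the log2 scale, while RFC1, RFC5 and the flap endonuclease FEN1 were not called, at -0.63, -0.37 and -0.24.

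The 5 single-strand binding and fork checkpoint genes held the second largest fall. Claspin (CLSPN), the adaptor that relays the checkpoint signal at forks, lay at 19.6 and 15.5 CPM untreated and at 3.14 and 4.69 after 7 days of GSK591 (log2 fold -2.17 ± 0.442 SE). The groups did not overlap, but without GSK591 7-day replicate 1 CLSPN was not called, at -1.90. The single-strand binding subunits RPA1 and RPA2 had log2 folds of -0.96 and -1.27 and were called, and RPA3 (-0.33) and the checkpoint partner TIPIN (0.26) were not.

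All 4 genes of nucleotide synthesis had fallen at 4 and at 7 days. RRM2, the S phase subunit of ribonucleotide reductase, lay at 52.7 and 56.6 CPM untreated, 32.7 and 29.4 on day 2, 15.7 and 13.9 on day 4 and 15.0 and 17.8 on day 7, with no overlap with untreated at any time. Its 7-day log2 fold was -1.74 ± 0.124 SE (edgeR adjusted p = 3.00e-15), the smallest p of the 53. RRM1, the partner subunit, had -0.78, thymidylate synthase (TYMS) -1.09 ± 0.217 SE and TK1 -0.45. On the exons of TYMS, 39.1% of bases are also covered by ENOSF1 on the opposite strand, and whether the counting used strand is not given in the sources used here.

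Of the chromatin genes, CHAF1A, the large subunit of the assembly factor CAF-1, went from 23.2 and 21.2 to 8.49 and 7.50 CPM (log2 fold -1.47 ± 0.186 SE), and UHRF1, which guides DNA methylation to new DNA, from 16.9 and 15.8 to 7.56 and 6.83 (log2 fold -1.18 ± 0.171 SE). CHAF1B fell by 0.79 on the log2 scale. SLBP, which binds histone mRNA, stayed between 12.6 and 25.6 CPM over the 30 libraries and was not called with GSK591 at any time (7-day log2 fold -0.26 ± 0.173 SE).

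The G1/S regulators split. E2F1 went from 13.2 and 17.4 CPM untreated to 14.0 and 13.1 on day 2, 4.51 and 3.31 on day 4 and 5.93 and 4.29 on day 7 (7-day log2 fold -1.58 ± 0.209 SE), and E2F2 from 11.3 and 11.3 to 9.01 and 9.77, 3.36 and 3.21 and 2.56 and 3.62 (log2 fold -1.88 ± 0.231 SE). Neither was called at 2 days, though E2F1 was called lower then in the authors' deposited table (log2 fold -0.71), in which E2F2 was not matched. Cyclin E1 (CCNE1) lay at 5.89 and 4.74 CPM untreated, 6.05 and 6.21 on day 2, 2.11 and 2.81 on day 4 and 6.39 and 4.02 on day 7. It fell only at 4 days (log2 fold -1.11 ± 0.297 SE, edgeR adjusted p = 0.00606), a call that was lost without GSK591 4-day replicate 1 or untreated replicate 1 (-1.32 to -0.92 over the 4 libraries left out). Cyclin E2 (CCNE2) was not called, at 5.45 and 6.25 CPM untreated and 5.70 and 5.76 on day 7, but 37.0% of its exon bases are shared with INTS8 on the opposite strand.

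**Figure D2:**
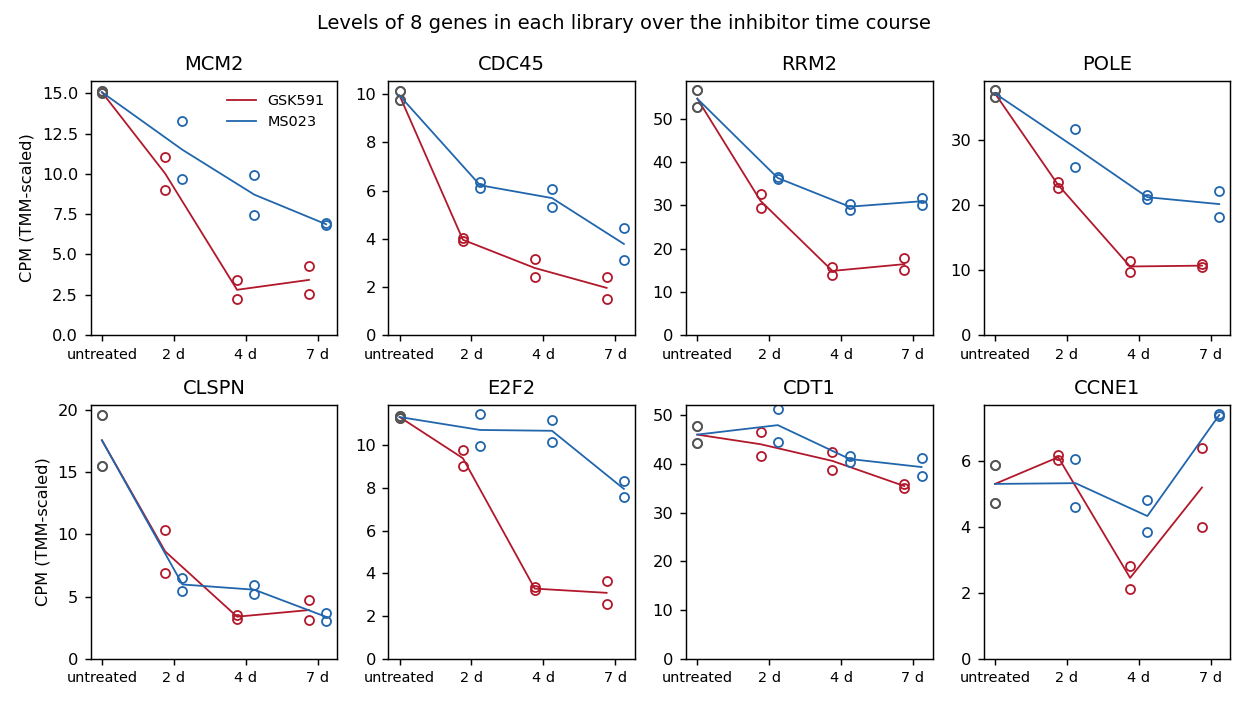
Levels of 8 genes in TMM-scaled CPM (y axes, linear from 0) in each library of the untreated, 2-day, 4-day and 7-day groups (x axes, not to scale in time); points are libraries and lines join the means of 2, red for GSK591 and blue for MS023. MCM2, CDC45, RRM2 and POLE lie lower with GSK591 than with MS023 at 4 and 7 days, CLSPN reaches about the same level with both, CDT1 was called only at 7 days of GSK591, and CCNE1 is lowest at 4 days of GSK591; the MS023 lines would end above the untreated level for CDT1, E2F2, RRM2, POLE and, further than here, CCNE1 if libraries were scaled by total counts alone.

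Direct tests between time points used no untreated library. From 2 to 4 days of GSK591, 20 of the 53 genes fell and none rose, against 2.25% of all genes that fell. MCM2 had a log2 fold of -1.84 ± 0.243 SE, E2F1 of -1.78 ± 0.216 SE, E2F2 of -1.51 ± 0.226 SE and RRM2 of -1.06 ± 0.128 SE. Between 4 and 7 days 2 of the 53 changed (8.29% of all genes changed either way): CDC6 had a log2 fold of -0.46 ± 0.134 SE and CCNE1 of 1.10 ± 0.304 SE, the latter a rise.

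With MS023 the summed level was 720 ± 11.3 CPM after 2 days, 623 ± 8.96 after 4 days and 564 ± 2.39 after 7 days. None of the 53 genes rose, and 7 fell at 2 days (4.21% of all genes fell), 19 at 4 days (6.37%) and 24 at 7 days (6.51%), with median log2 folds of -0.23, -0.49 and -0.60. Leaving out any 1 library left 2 to 5, 11 to 14 and 17 to 20 calls. At 7 days LIG1, MCM3, MCM6, ORC1, POLD1, POLD3 and RPA1 were among those lost without at least 1 library. This direction rests on the scaling: by total counts alone the median over all genes rose by 0.68, 0.74 and 1.02, and the median of the 53 genes was 0.45, 0.26 and 0.41. The calls then turned as well, to 13 higher and none lower at 2 days, 11 higher and 1 lower at 4 days, and 19 higher and 1 lower at 7 days. Relative to all genes the 53 then lay at -0.23, -0.48 and -0.62, close to the TMM values. The 7-day MS023 libraries held 58.7% and 59.6% mitochondrial counts and the untreated ones 73.4% and 76.0%, and the part of this in the result was not tested. All folds with MS023 below are to be read relative to the median gene.

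At 7 days of MS023, 9 of the 11 licensing genes were lower, more than in any other role, with a median log2 fold of -0.88. MCM2 lay at 6.80 and 6.95 CPM against 15.0 and 15.1 untreated (log2 fold -1.13 ± 0.191 SE, edgeR adjusted p = 2.53e-05), and MCM5 at 12.5 and 11.9 (log2 fold -1.08 ± 0.139 SE), both without overlap. CDC6 had a log2 fold of -0.56 ± 0.119 SE and was not called without untreated replicate 1 (-0.38). MCM7 had -0.50 ± 0.114 SE. GMNN and CDT1 were not called, at -0.37 ± 0.154 SE and -0.23 ± 0.116 SE.

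Elsewhere 15 of 42 genes fell. CLSPN showed the largest fall, from 19.6 and 15.5 CPM untreated to 5.48 and 6.46 on day 2, 5.19 and 5.91 on day 4 and 3.05 and 3.69 on day 7 (7-day log2 fold -2.38 ± 0.411 SE, edgeR adjusted p = 8.48e-04). CDC45 lay at 4.46 and 3.11 CPM (log2 fold -1.39 ± 0.225 SE), CHAF1A at 9.07 and 9.26 (-1.27 ± 0.170 SE), POLE at 18.1 and 22.1 (-0.88 ± 0.127 SE), RRM2 at 31.7 and 30.2 (-0.82 ± 0.111 SE) and UHRF1 at 9.56 and 9.05 (-0.81 ± 0.153 SE). All 10 of these library values, from genes already called, were below both untreated values of the same gene. RFC2 had a log2 fold of -0.92 ± 0.216 SE. PCNA had -0.64 ± 0.138 SE and was not called without untreated replicate 2 (-0.50). E2F1 had -0.71 ± 0.177 SE and was not called without MS023 7-day replicate 1 (-0.61) or untreated replicate 2 (-0.49). TYMS had -0.62 ± 0.191 SE and was called in only 1 of its 4 leave-one-out fits (-0.84 to -0.42).

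Not called with MS023 at 7 days were E2F2 (7.58 and 8.32 CPM, log2 fold -0.51 ± 0.184 SE), SLBP (-0.15 ± 0.162 SE), CCNE1 (7.37 and 7.46 CPM, 0.48 ± 0.243 SE), CCNE2 (0.12 ± 0.201 SE), RFC3 (-0.86 ± 0.387 SE) and POLA1 (-1.50 ± 0.626 SE). For CCNE1 both MS023 libraries lay above both untreated ones. In the steps between times, 6 of the 53 genes changed from 2 to 4 days of MS023, all lower (4.91% of all genes changed): ORC6, CDC6, MCM3, MCM7, E2F1 and POLE. From 4 to 7 days 4 changed (9.04%): MCM5, RPA1 and TK1 fell, and CCNE1 rose (log2 fold 0.77 ± 0.235 SE).

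**Figure D3:**
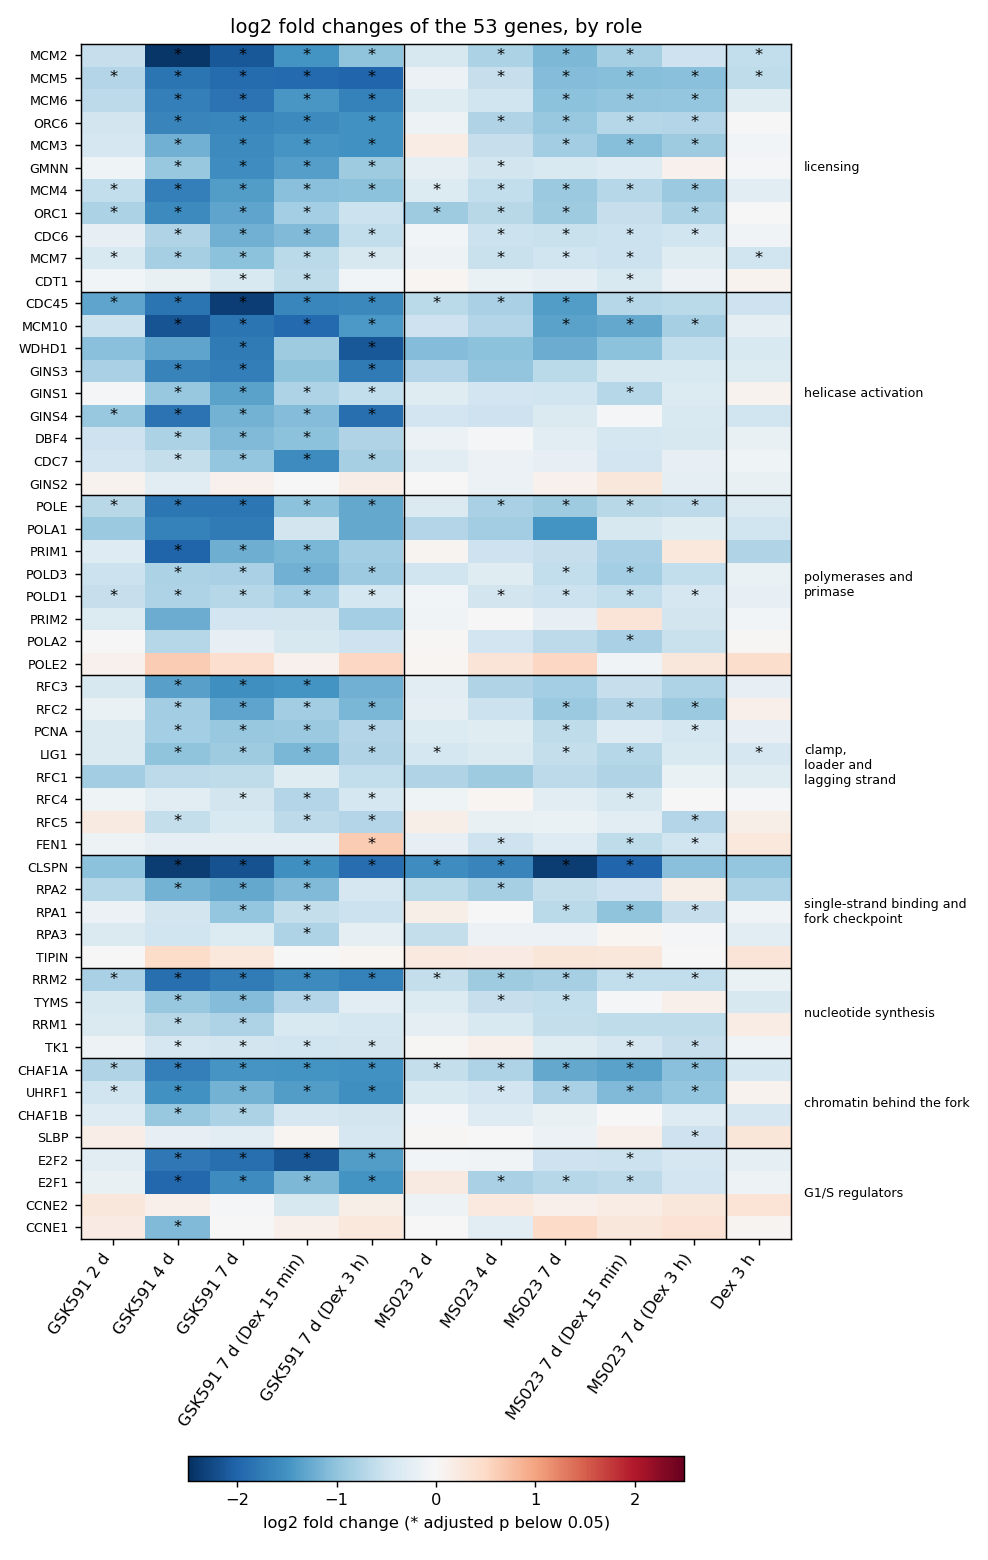
Fitted log2 fold changes (colour, from -2.5 blue to 2.5 red) of the 53 genes (rows, by role and then by the 7-day GSK591 value) in 11 comparisons (columns); inhibitor columns are against untreated, or where Dex stands in brackets against Dex alone for that time, and * marks an adjusted p below 0.05. Blue fills the licensing rows except CDT1 from 4 days of GSK591, the MS023 columns are paler in most rows but not for CLSPN, and the only starred red cell is FEN1 after GSK591 and 3 h of Dex; values are TMM-scaled, and the MS023 columns would have medians above 0 by total counts alone.

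The inhibitors were given at the same concentration and times and were set against each other directly. Whether 1 µM of each inhibited its targets equally was not tested. At 7 days the GSK591 libraries held 73.7% and 78.7% mitochondrial counts and the MS023 ones 58.7% and 59.6%, and the part of this in the differences was not tested. At 2 days GSK591 was lower than MS023 for 2 of the 53 genes (1.58% of all genes were lower), POLD1 (log2 fold -0.51 ± 0.144 SE) and MCM5 (-0.58 ± 0.144 SE). At 4 days it was lower for 20 (3.52%) and at 7 days for 16 (4.47%), and it was higher for none. Leaving out any 1 library left 0 to 1, 12 to 15 and 8 to 13 calls. By total counts alone 48 of the 53 genes were lower at 7 days. The median over all genes was then -0.03 with GSK591 and 1.02 with MS023, each against untreated, so this count is not particular to the 53.

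At 7 days the differences lay in licensing (7 of 11 genes), helicase activation (5 of 9), the E2F pair, POLE and RRM2. E2F2 differed most, with 2.56 and 3.62 CPM with GSK591 and 7.58 and 8.32 with MS023 (log2 fold -1.37 ± 0.233 SE, edgeR adjusted p = 3.19e-05). GMNN had 6.04 and 4.56 against 13.0 and 11.1 (-1.17 ± 0.185 SE), MCM2 4.30 and 2.55 against 6.80 and 6.95 (-0.98 ± 0.244 SE), CDC45 1.51 and 2.41 against 4.46 and 3.11 (-0.97 ± 0.305 SE), RRM2 15.0 and 17.8 against 31.7 and 30.2 (-0.92 ± 0.125 SE) and POLE 10.5 and 10.9 against 18.1 and 22.1 (-0.92 ± 0.148 SE). In each of these 6 genes both GSK591 libraries were below both MS023 libraries. All 6 were taken from the called genes, so this is no separate support.

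For the other 37 genes no difference between the inhibitors was called at 7 days. In the edgeR test 25 of the 53 genes had an unadjusted p below 0.05, against the 16 called. PCNA and UHRF1 were among the uncalled genes whose unadjusted intervals lay below 0. The log2 difference for CLSPN was 0.20 ± 0.519 SE, with a 95% interval from -0.81 to 1.22, for CHAF1A -0.19 ± 0.197 SE (from -0.58 to 0.19), for PCNA -0.31 ± 0.149 SE (from -0.61 to -0.02) and for UHRF1 -0.37 ± 0.175 SE (from -0.71 to -0.02). None of the 8 clamp, loader and lagging-strand genes and none of the 5 single-strand binding and checkpoint genes were called.

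**Figure D4:**
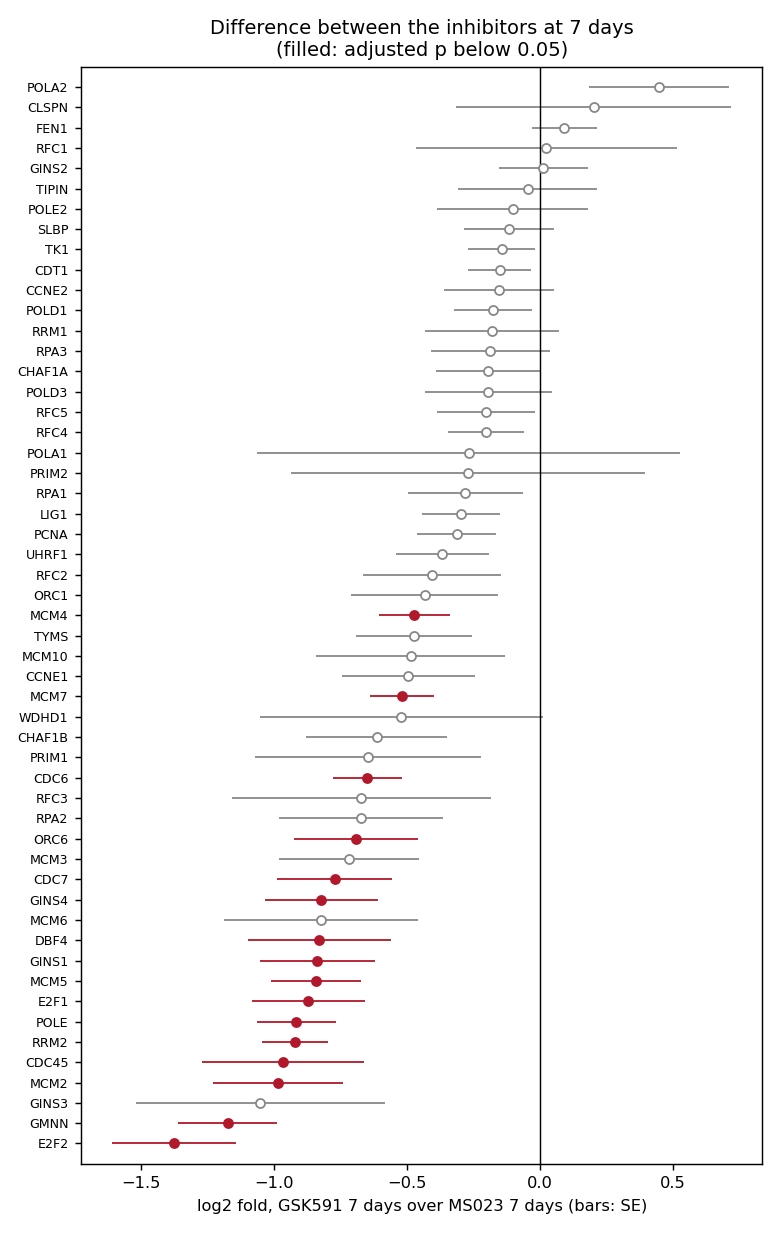
Fitted log2 fold of GSK591 over MS023 at 7 days (x axis; bars are 1 SE either side) for each of the 53 genes (y axis, ordered by value); filled red points have an adjusted p below 0.05. The 16 filled points run from -1.37 (E2F2) to -0.47 (MCM4), and no gene to the right of 0 is filled. Values are TMM-scaled. By total counts alone 48 of the 53 genes were called lower, where the median over all genes against untreated was -0.03 with GSK591 and 1.02 with MS023.

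Dex for 15 min changed none of the 53 genes in the edgeR test (1.26% of all genes changed; 1 of the 53 had an unadjusted p below 0.05, and DESeq2 also called 0). After 3 h of Dex 4 genes fell (4.41% of all genes fell) and the summed level was 751 ± 2.83 CPM. MCM5 went from 26.1 and 25.5 to 17.4 and 15.9 CPM (log2 fold -0.63 ± 0.141 SE, edgeR adjusted p = 0.00133) and MCM7 from 51.1 and 50.4 to 36.1 and 36.1 (log2 fold -0.49 ± 0.117 SE). MCM2 went to 9.04 and 10.6 CPM (log2 fold -0.62 ± 0.194 SE) and LIG1 to 21.5 and 19.0 (log2 fold -0.43 ± 0.138 SE). None of the 4 overlapped its untreated range, but MCM2 was not called without any 1 of the 4 libraries (-0.74 to -0.50) and LIG1 not without either Dex library or untreated replicate 1 (-0.55 to -0.29 over the 4), and by total counts alone none of the 53 was called.

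Adding an inhibitor to Dex for the same 3 h changed none of the 53 genes against Dex alone in the edgeR test. With GSK591 the summed level was 746 ± 0.781 CPM and 0% of all genes changed, with 3 of the 53 at an unadjusted p below 0.05. With MS023 it was 812 ± 91.9 CPM and 0.196% of all genes changed, with 8 of the 53 at an unadjusted p below 0.05. DESeq2 also called 0 in both. With replicate 1 of the MS023 pair left out, so that only the library that stood apart remained, 11 of the 53 genes were called, and with replicate 2 left out none was.

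The 7-day inhibitor effect was measured again in other inhibitor libraries, with Dex present on both sides. After GSK591, 38 of the 53 genes were lower than with 15 min of Dex alone (8.58% of all genes were lower) and 31 were lower than with 3 h of Dex alone (7.36%), where 32 changed in either direction (13.6%). Median log2 folds were -0.93 and -0.76. After MS023 28 were lower at 15 min (7.75%) and 20 at 3 h (6.11%), with medians of -0.58 and -0.48. Leaving out any 1 library left 26 to 33, 23 to 26, 14 to 23 and 10 to 14 calls.

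In all 3 settings (no Dex, 15 min and 3 h of Dex), 28 genes were lower with GSK591 (3.03% of all genes were): 9 of the 11 licensing genes, CDC45, CDC7, MCM10, GINS1 and GINS4 of helicase activation, POLE, POLD1 and POLD3, PCNA, LIG1, RFC2 and RFC4, CLSPN, RRM2 and TK1, CHAF1A and UHRF1, and E2F1 and E2F2. MCM2 lay at 4.92 and 4.52 CPM after GSK591 and 15 min of Dex against 14.3 and 12.3 with Dex alone, and at 4.41 and 5.39 against 9.04 and 10.6 at 3 h. RRM2 lay at 20.1 and 15.6 against 53.3 and 52.7 and at 16.0 and 14.2 against 48.4 and 49.7. Neither gene overlapped between the groups at either time. With MS023 14 genes were lower in all 3 settings (2.15% of all genes were): MCM3, MCM4, MCM5, MCM6, CDC6, ORC6, MCM10, POLD1, POLE, RFC2, RPA1, RRM2, CHAF1A and UHRF1. In none of the 3 settings was a fall called with GSK591 for 11 genes: CCNE1, CCNE2, FEN1, GINS2, POLA1, POLA2, POLE2, PRIM2, RFC1, SLBP and TIPIN.

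The Dex response was then taken within cells given an inhibitor for 7 days. After GSK591, POLE alone changed with 15 min of Dex, a rise from 10.5 and 10.9 to 16.0 and 16.4 CPM (log2 fold 0.60 ± 0.157 SE; 2.09% of all genes changed), and it was not called without any 1 of the 4 libraries (0.58 to 0.63). With 3 h of Dex after GSK591, 7 changed (9.85% of all genes changed): FEN1, GINS1, GMNN, CDC6 and CDT1 rose, with log2 folds of 1.13, 0.82, 0.61, 0.52 and 0.41, and GINS4 and MCM5 fell (-1.18 and -0.69). Of these FEN1 alone was called in all 4 leave-one-out fits. After MS023 none of the 53 changed with 15 min of Dex in the edgeR test (2.07% of all genes changed; 3 of the 53 had an unadjusted p below 0.05, and DESeq2 called 0), and with 3 h MCM5 (-0.59 ± 0.151 SE) and GINS2 (-0.50 ± 0.165 SE) fell (11.1%). MCM5 was not called without MS023 7-day replicate 1 or replicate 2 of the combination (-0.75 to -0.44 over the 4), and GINS2 was called in only 1 of the 4 fits (-0.68 to -0.33).

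Whether the Dex response itself differed after an inhibitor was tested by the interaction. For 15 min of Dex none of the 53 was called with either inhibitor (0.00436% of all genes were called with each; 2 of the 53 had an unadjusted p below 0.05 with each, and DESeq2 called 0). For 3 h none was called with MS023 (0.223% of all genes; 6 of the 53 at an unadjusted p below 0.05, 0 by DESeq2) and 1 with GSK591 (0.223%). That gene was FEN1, the flap endonuclease that trims Okazaki fragments. It lay at 25.7 and 25.7 CPM untreated, 30.8 and 30.5 after 3 h of Dex, 21.6 and 22.0 after 7 days of GSK591 and 47.8 and 47.6 after both. The interaction was 0.87 ± 0.170 SE on the log2 scale (edgeR adjusted p = 0.00884), and against Dex alone FEN1 was higher by 0.64 ± 0.115 SE. It was not called without Dex 3 h replicate 2, either GSK591 7-day replicate or untreated replicate 1, with values of 0.86 to 0.88 over all libraries left out. After MS023 and 3 h of Dex FEN1 lay at 22.6 and 20.6 CPM, with an interaction of -0.18 ± 0.167 SE. The exons of FEN1 overlap those of TMEM258 on the opposite strand over 6.70% of their bases and those of FADS2 on its own strand over 1.98%, and the part of either gene in these counts was not tested.

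Other genes of the pathway, in lists chosen with earlier results of these data known, moved less uniformly. Of 25 further replication genes, 11 fell and none rose after 7 days of GSK591 (median log2 fold -0.62), and 6 fell and none rose after 7 days of MS023 (-0.42). Of 25 genes of the RB, E2F and cyclin network, 10 fell and 2 rose with GSK591 (-0.34), and 6 fell and 4 rose with MS023 (-0.07). Of all genes tested, 6.52% fell and 6.68% rose with GSK591, and 6.51% fell and 7.13% rose with MS023. The 2 rises among 25 with GSK591 were thus near the background. The furthest falls with GSK591 were of RBL1, which encodes the pocket protein p107 (6.12 ± 0.470 CPM untreated, 1.23 ± 0.228 after 7 days, log2 fold -2.29), MYBL2, a late cell cycle activator (7.76 ± 0.280 to 1.77 ± 0.530, -2.14), and E2F8, an E2F repressor (9.11 ± 1.08 to 2.12 ± 0.0365, -2.10).

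CDKN1A, which encodes the cyclin-dependent kinase inhibitor p21, was the furthest riser with both inhibitors, from 10.7 ± 0.523 CPM to 28.4 ± 6.30 with GSK591 (log2 fold 1.41) and 16.7 ± 3.59 with MS023 (0.64). E2F5 was the other gene to rise with GSK591 (0.55). With MS023 the kinase inhibitor CDKN2C (0.49) and cyclin D3 (CCND3, 0.47) came next among the rises, and CDK2 (-1.56), E2F7 (-0.96) and MYBL2 (-0.92) fell furthest. CDKN2A, the p16 locus, had at most 3 counts in any library.

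Genes that start head to head with a member, within 1000 bases on the other strand, gave a local comparison. There were 20 of them and 18 passed the filter. After 7 days of GSK591 4 of the 18 fell (median log2 fold -0.28), while 15 of the 18 members beside them fell (median -1.06), and after 7 days of MS023 1 of the 18 fell (-0.16) and 11 of the members (-0.62). Over all genes tested 6.52% fell with GSK591 and 6.51% with MS023, with medians of -0.005 and 0.006. The neighbours of the members thus also lay below the median gene. TPRA1, whose start lies 44 bases from that of MCM2, had a log2 fold of -0.53 beside -2.11 for MCM2. TPRA1 also covers 22.7% of the exon bases of MCM2, and AP4M1 covers 8.94% of those of MCM7. The part of such shared bases in this comparison was not tested. PXMP2, 241 bases from POLE, had 0.38 and was not called, beside -1.80. VPS35, SOCS4 and AFMID, the neighbours of ORC6, WDHD1 and TK1, were the others to fall with GSK591.

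The authors' deposited tables, whose columns are those of DESeq2, list 47 of the 53 genes and were read beside the counts. CDC7, RPA2, ORC1, E2F2, RRM2 and CLSPN were not matched in them. At an adjusted p below 0.05 in the authors' deposited table, 43 of 47 were lower after 7 days of GSK591 (7.98% of its genes were lower) and 39 of 47 after 7 days of MS023 (7.55%), with median log2 folds of -1.51 and -0.72 where the count table gave -1.09 and -0.60 for the same genes. With GSK591 at 7 days, 9 genes were lower only there: POLA1, POLA2, PRIM2, RFC5, POLE2, FEN1, GINS2, CCNE2 and RFC1. After 2 and 4 days of GSK591, 30 and 45 of 47 were lower there, 8 and 32 of them in both sources. E2F1, CDC6, TK1, MCM2 and MCM10 were among those lower at 2 days only there. After 2 and 4 days of MS023, 17 and 30 were lower there, 2 and 14 of them in both. Of its 28873 genes, 1260 and 2312 were lower with GSK591 at these times and 1429 and 2112 with MS023. For 3 h of Dex the authors' deposited table had 10 lower (6.07%) and RPA1 higher, MCM2 and MCM5 being lower in both sources.

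The sources parted for 8 genes, whose 7-day GSK591 log2 folds differed by more than 1: GINS2, POLE2, FEN1, TK1, CDT1, RFC5, RFC4 and CCNE2. In each the authors' deposited table gave the lower value. GINS2 was at -2.35 in the authors' deposited table, the lowest of the 47 there, and at 0.11 here. In the same order POLE2 was at -1.91 and 0.41, FEN1 at -2.04 and -0.24, TK1 at -2.12 and -0.45, and CDT1 at -1.91 and -0.38. The mean level in the authors' deposited table, divided by the mean count, had a median of 0.487 over these 8 genes and 2.59 over the other 39. The ranges overlapped, from 0.269 to 3.63 for the 8 and from 0.394 to 42.8 for the 39. Which reads each source counted was not tested. GINS2, POLE2, FEN1, RFC5 and CCNE2 of these 8 were not called in the count table, and CDT1 was called there only with every library present.

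**Figure D5:**
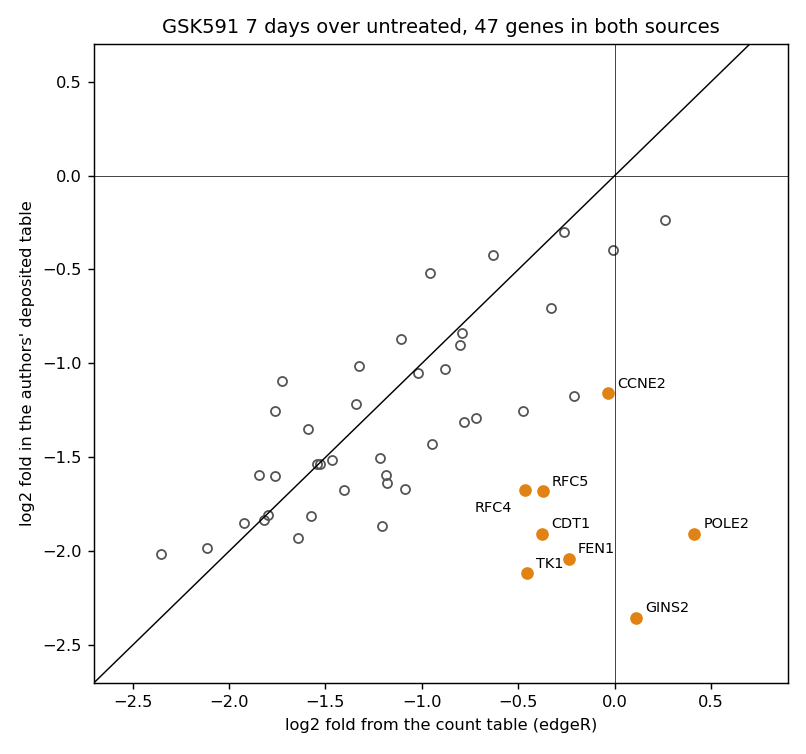
Log2 fold of 7 days of GSK591 over untreated for the 47 genes in both sources, from the count table by edgeR (x axis) and as printed in the authors' deposited table (y axis); the diagonal marks equal values. The 8 filled and named genes lie more than 1 below the diagonal, and the other 39 lie within 1 of it.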

How the data were processed

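PRO-seq libraries of A549 cells (15 groups of 2) were used. Read counts per gene were deposited by the authors, made with Subread and featureCounts 2.0.1 on hg38, per the submitters' processing notes. The strand setting, feature type and annotation are not given in the sources used here. The authors' deposited tables give log2 fold changes, p-values and a mean normalized signal per gene, per the file headers. All sample columns were matched to a sample (0 were not). The 53 genes and the other gene lists were chosen with earlier results of these data known.

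Counts were scaled by TMM and tested with edgeR 4.0.16 (quasi-likelihood, robust) in R 4.3.3, after filterByExpr (minimum count 10, minimum total 15), with 1 coefficient per group, 29 contrasts, 15 residual degrees of freedom and Benjamini-Hochberg adjustment over 22919 genes in each contrast. The biological coefficient of variation was 10.6%. The steps were tested on simulated counts. Alternatives were DESeq2 1.42.0, its size factors in edgeR, total counts alone, no filter, a replicate block, the compared groups alone, removal of mitochondrial and ribosomal RNA genes, and each replicate left out in turn.

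Full statistics went to PCNA, MCM2, MCM5, MCM7, CDC6, CDT1, GMNN, E2F1, CCNE1, CCNE2, TYMS, RRM2, UHRF1, SLBP, the gene with the largest change in each role group with each inhibitor at 7 days, and any gene called higher in an inhibitor comparison. Of other pathway genes, the 3 largest rises and falls called with each inhibitor at 7 days were named. Genes beyond these were chosen for the text after their values were seen. Exon lengths and overlaps came from GENCODE 29 and promoters from RefSeq.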

Additional observations from a re-analysis of the deposited data

Results flagged for a closer look

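FEN1 differed in its response to 3 h of Dex between cells given GSK591 for 7 days and cells without it, by the test of the difference itself. The interaction was 0.87 on the log2 scale (edgeR adjusted p = 0.00884), with both libraries of the combination higher than all 6 libraries of untreated cells, Dex alone and GSK591 alone. The authors' deposited table and the count table differ by more than 1 on the log2 scale for FEN1 after 7 days of GSK591. For 3 h of Dex alone they differ in sign, at -0.31 in the authors' deposited table and 0.26 in the count table, and neither was called. The part of these differences in the interaction was not tested.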

How the results depend on the processing

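Scaling by total counts alone changed most. Calls among the 53 genes were then 1 with GSK591 at 2 days and 20 at 4 days (2 higher), 13 with MS023 at 2 days (all higher) and 12 at 4 days (11 higher), 20 with MS023 at 7 days (19 higher, against 24 lower with TMM), 5 and 48 between the inhibitors at 2 and 7 days, 0 with Dex at 3 h, 19 for GSK591 beside 3 h of Dex, 7 for MS023 beside 15 min of Dex, 14 over the time steps, 3 for Dex after an inhibitor and 0 interactions. The medians with MS023 were 0.45, 0.26 and 0.41 at 2, 4 and 7 days, where all genes had 0.68, 0.74 and 1.02. At 7 days of MS023 the log2 folds turned for PCNA (0.38), MCM7 (0.52), CDC6 (0.47), CDT1 (0.79), GMNN (0.65), E2F1 (0.30), TYMS (0.40), RRM2 (0.20), UHRF1 (0.21), SLBP (0.87), POLE (0.14), RFC3 (0.16), E2F2 (0.51) and RFC2 (0.10). The cause was not tested. With the compared groups alone there were 16 calls with MS023 at 2 days, 29 at 4 days, 7 with Dex at 3 h and 2 interactions. DESeq2 gave 3 with MS023 at 2 days, 0 between the inhibitors at 2 days, 2 with Dex at 3 h, 13 for MS023 beside 3 h of Dex and 5 for Dex after an inhibitor. With no filter there was 1 call between the inhibitors at 2 days and 1 for an inhibitor added to Dex. Leaving out a library gave 5 to 7 calls with GSK591 at 2 days, 2 to 5 and 11 to 14 with MS023 at 2 and 4 days, 0 to 1, 12 to 15 and 8 to 13 between the inhibitors, 2 to 4 with Dex at 3 h, 14 to 23 and 10 to 14 for MS023 beside 15 min and 3 h of Dex, 0 to 11 for an inhibitor added to Dex, 4 to 10 for Dex after an inhibitor and 0 to 1 interactions. CCNE1 at 7 days of GSK591, near 0, was 0.00495 with the groups alone, 0.00776 by DESeq2, 0.0142 with its size factors, 0.00224 without mitochondrial and ribosomal RNA genes and -0.40 to 0.27 with a library left out. CCNE2 was then -0.12 to 0.0716 with GSK591 and -0.00228 to 0.23 with MS023. DESeq2 size factors and the removal of mitochondrial and ribosomal RNA genes kept all 19 counts of calls within 1.5 times, as did the replicate block (39 with GSK591 at 4 days, 40 at 7 days, 25 with MS023 at 7 days). Deviations of same-numbered libraries correlated at -0.45 to 0.49 over 105 group pairs, with a median of 0.02 and 22 above 0.1. This shows no pairing common to all groups, and a pairing or batch shared by only some groups was not tested. Depth limits PRIM2 most, with 9 counts in each untreated library and an SE of 0.686 at 7 days of GSK591.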
